A study of Mus musculus with 8 samples.

Results

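The baseline H3K27ac landscape of mouse embryonic stem cells kept under an inhibitor of FGF receptors was described from the peak lists of 2 untreated clones. Peaks of both lists that shared at least 1 bp were merged into 70456 regions. The 42722 regions with a peak in both clones (60.6%) are called baseline regions here, out of 82792 merged regions over all 4 H3K27ac lists of the study. A further 14133 regions had a peak in clone a alone and 13601 in clone b alone. No list of treated cells was used to choose or rank a region.

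All cells were E14tg2a embryonic stem cells, a 129SV line, carrying cRAF-ErT2, a RAF kinase joined to an oestrogen receptor domain, and clones a and b were sampled in each treatment. They grew in serum with LIF and 2 uM Chir99021, an inhibitor of the kinase GSK3. For the last 24 h the labels give serum, LIF and 250 nM PD173074, the FGF receptor inhibitor, so untreated and treated cells alike had been under it. The untreated cells are the 0 h state, and the comparison libraries are the same clones after 2 h with 250 nM 4-hydroxytamoxifen (4OHT). The labels name no vehicle control and no cells without the inhibitor, so these lists hold no measure of what the inhibitor itself did.

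Acetylation of histone H3 at lysine 27 marks active promoters and enhancers and is laid down mainly by the acetyltransferases EP300 and CREBBP. Long stretches of it, often termed super-enhancers, are known to lie near genes that define a cell's identity, which in embryonic stem cells include the transcription factors OCT4 (Pou5f1), SOX2 and NANOG. LIF sustains self-renewal through STAT3, inhibition of GSK3 raises WNT signalling, and FGF acting through ERK prepares the cells to leave the naive state.

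Each peak carries the authors' own score, deposited without a stated scale. It was turned into a percentile within its own list, so that 100 is the highest peak of a library, and a region took the percentile of its highest peak. The lower of the 2 untreated percentiles is called strength below, and the lower of the 2 lengths covered by peaks is called covered length. Paired values are given for clone a first and clone b second. Sequencing depth cannot be read from the lists, and a region without a peak is not shown to lack the mark. Peak lists are also bulk values: a mark in part of the cells and a weaker mark in every cell cannot be told apart.

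The baseline region with the greatest covered length, taken as the shorter of the untreated clones, lay over the Mir290 to Mir295 cluster, which encodes the microRNAs most typical of mouse embryonic stem cells, and mature sequences from that region are shown because the cluster is known for a seed that recurs among its members. The region spans chr7:3198381-3221421 (mm10) and holds 9 microRNA genes of the RefSeq table. Capitals mark the seed, bases 2 to 8 counted from the 5′ end. Sequences are RefSeq mature microRNAs, with positions on GRCm38.p6, and these 6 are the 3p arms listed on the plus strand. Mir292, also on that strand, had only a 5p arm listed, so its 3p arm is not among them.
miR-290a-3p: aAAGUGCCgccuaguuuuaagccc
miR-291a-3p: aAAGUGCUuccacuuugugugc
miR-291b-3p: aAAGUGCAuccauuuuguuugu
miR-293-3p: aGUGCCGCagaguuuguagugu
miR-294-3p: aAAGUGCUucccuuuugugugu
miR-295-3p: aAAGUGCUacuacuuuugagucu
The seeds of 5 of these 6 arms start with AAGUGC, and 3 of them read AAGUGCU. The exception was miR-293-3p, whose seed was GUGCCGC.

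Promoters at opposite ends of the landscape are printed next, as the 250 bases before the start on the strand of the gene (RefSeq, GRCm38.p6; all 4 on the plus strand). Nanog and Mcm5, which encodes a subunit of the replicative helicase, had strengths of 99.1 and 99.9 at this window. Fgf5, a growth factor of the primed epiblast, and Alb, the liver's albumin gene, had no untreated peak there. The windows are chr6:122707239-122707488 for Nanog, chr8:75109259-75109508 for Mcm5, chr5:98253934-98254183 for Fgf5 and chr5:90460620-90460869 for Alb. Capitals mark letters that match 1 of 9 motifs on either strand.
Nanog: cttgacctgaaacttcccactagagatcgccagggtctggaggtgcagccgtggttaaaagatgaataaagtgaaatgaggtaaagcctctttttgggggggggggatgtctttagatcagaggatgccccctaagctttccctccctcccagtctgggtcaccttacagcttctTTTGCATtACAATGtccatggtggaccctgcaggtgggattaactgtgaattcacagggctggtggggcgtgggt
Mcm5: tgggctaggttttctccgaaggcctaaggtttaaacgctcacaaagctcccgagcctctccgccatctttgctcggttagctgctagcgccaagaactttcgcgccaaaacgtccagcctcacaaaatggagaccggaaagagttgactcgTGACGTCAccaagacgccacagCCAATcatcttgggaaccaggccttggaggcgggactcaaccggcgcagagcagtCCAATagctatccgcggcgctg
Fgf5: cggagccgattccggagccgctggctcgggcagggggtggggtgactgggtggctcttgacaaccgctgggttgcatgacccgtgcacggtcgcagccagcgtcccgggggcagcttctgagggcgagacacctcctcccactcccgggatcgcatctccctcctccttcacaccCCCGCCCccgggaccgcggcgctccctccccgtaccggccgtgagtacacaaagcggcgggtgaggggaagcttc
Alb: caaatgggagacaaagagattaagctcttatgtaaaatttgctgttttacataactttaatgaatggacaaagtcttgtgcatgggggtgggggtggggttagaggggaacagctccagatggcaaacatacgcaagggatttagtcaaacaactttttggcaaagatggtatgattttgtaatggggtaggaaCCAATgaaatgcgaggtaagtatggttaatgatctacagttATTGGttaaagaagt
In Nanog the capitals are the octamer-like letters ATGCAAA on the reverse strand, starting 75 bases before the start, and the SOX-like letters ACAATG, starting 67 bases before it. In Mcm5 they are the cAMP response element TGACGTCA and 2 CCAAT boxes. Fgf5 holds a GC box and Alb holds 2 CCAAT boxes. Counting CG dinucleotides in these 250 bases gave 3 in Nanog, 19 in Mcm5, 24 in Fgf5 and 2 in Alb. A CpG-rich window thus occurred without a peak and a CpG-poor window with a strong region.

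Over all 21238 promoter windows of 300 bases, from 250 before to 50 after the start, CpG content differed between windows with and without a peak. The 11499 windows without an untreated peak had a median of 5 CG dinucleotides and 50.7% G or C. The 2432 windows in baseline regions of strength 90 or more had medians of 23 and 61.3%, and those of strength under 50 had 21 and 63.0%. CpG content was thus higher in windows with a region, and varied little with strength.

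Motif letters were counted in the same windows as a description. The ETS letters CCGGAAG were in 23.8% of windows of strength 90 or more, in 14.1% of those of strength under 50 and in 3.69% of those without a peak, against 11.6% of all windows. The GC box GGGCGGG was in 46.5%, 50.9% and 20.8% of the same classes and in 33.9% of all windows, and the TATA box TATAAA in 6.50%, 6.19% and 18.3%, against 12.6% overall. Of the others, CCAAT was in 38.1% of windows of strength 90 or more and 38.7% of windows without a peak, against 38.2% of all. The E-box CACGTG was in 7.84% of all windows, TGACGTCA in 2.24%, the NRF1-like GCATGCGC in 3.52%, ATGCAAA in 4.24% and ACAATG in 11%. The octamer-like and SOX-like letters seen at Nanog were less frequent in windows of strength 90 or more (3.21% and 7.61%) than in windows without a peak (4.98% and 14.8%). ATGCAAA and ACAATG hold few G or C and the GC box only these, and the classes differ in base composition, so these shares are not separate from the CpG counts.

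The baseline regions were mostly narrow, with a small wide tail. Their median width was 846 bp, from 203 to 23201 bp. The 879 regions over 5 kb were 2.06% of all and held 12.4% of the length covered in each clone, and 71 regions exceeded 10 kb. Percentiles of the same region in clones a and b had a Spearman correlation of 0.793 over the 42722 regions, and covered lengths 0.835. Strength and covered length correlated at 0.783. These correlations are descriptions over regions that share libraries, and a wide region has more peaks from which its highest is taken.

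Protein-coding gene starts came from the RefSeq promoter table for 17492 of 21887 genes. For the other 4395 genes either end of the gene interval was taken, among them Klf5, Sall4, Prdm14, Myc, Egr1, Spry4, Actb and Gata6. A region within 1 kb of such a position is said to lie at a start. By this measure 13207 baseline regions (30.9%) lay at a gene start, and 22.8% lay over 50 kb from any.

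The strongest and the widest regions overlapped but differed in their share at gene starts. Of the 1000 strongest regions 44.3% lay at a start, and of the 1000 widest 24.9%. The sets shared 387 regions. Ranked by clone a alone the strongest set had 38.3% at a start and by clone b alone 46.5%, while the widest set had 25.8% and 24.7%, so the strongest set was above the widest set in each clone. The edges of both sets were continuous with the next region: strength 97.5781 inside and 97.5777 outside, and covered length 4269 bp inside and 4268 bp outside.

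The regions were cut into 10 equal bins of rank, bin 1 being the highest. The share at starts fell steadily from bin to bin of strength, from 49.4% in bin 1 to 13.3% in bin 10. Inside bin 1 it ran the other way. The first 500, 1000 and 2000 regions had 40.6%, 44.3% and 47.85% at a start, each below the bin as a whole. By covered length it was 29.2% in bin 1, peaked at 39.1% in bin 3 and was 18.9% in bin 10. The widest bin therefore lay at starts less often than each of the next 6 bins, as the plot by bin shows.

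**Figure D1:**
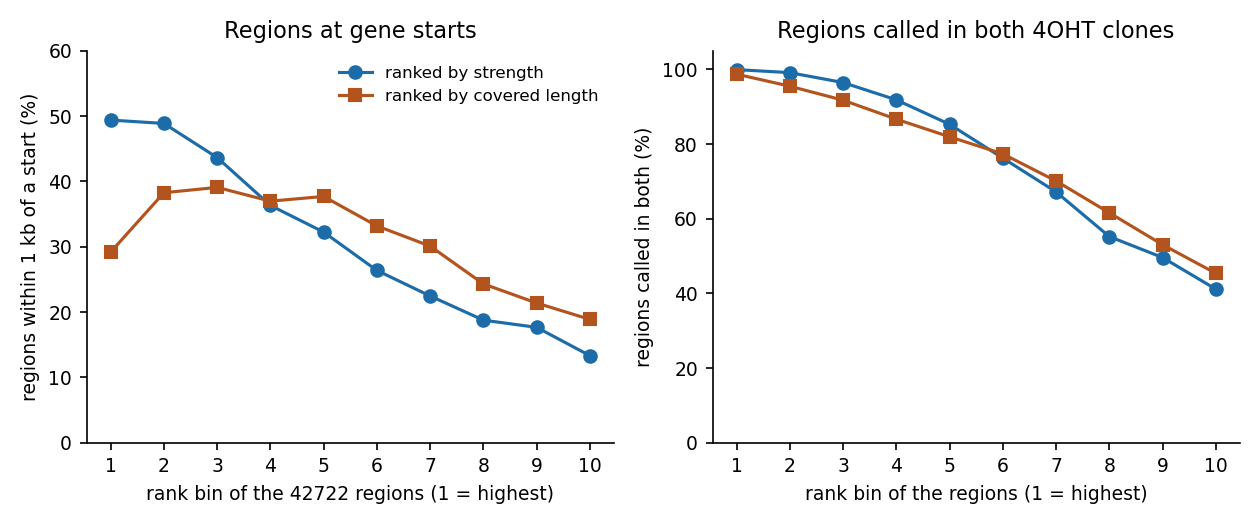
Left, share of baseline regions within 1 kb of a protein-coding gene start (y, percent) in 10 equal bins of the 42722 regions ranked by strength or by covered length (x, 1 is highest). Right, share of the same bins with a peak in both 4OHT clones (y, percent). The share at starts falls from 49.4% to 13.3% by strength and peaks at 39.1% in bin 3 by covered length.

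Most baseline regions were also present in the 4OHT lists, which had no part in the ranking. Of all baseline regions 76.2% had a peak in both 4OHT clones, 83.0% in clone a and 81.1% in clone b. All of the 1000 strongest and all of the 1000 widest regions did. From bin 1 to bin 10 of strength this share fell from 99.95% to 41.2%. Among the 1000 strongest, 945 were still in the upper 10% of the 4OHT list of clone a and 959 in that of clone b, and the lowest percentiles were 59.5 and 60.3. Among the 1000 widest the counts were 734 and 720, with lowest percentiles of 17.3 and 3.98. With 2 libraries a treatment, an exact two-sided permutation test cannot go below p = 0.333, so single regions were not tested between treatments.

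The 15 widest regions, ranked by covered length, covered between 14.2 and 23.2 kb in each untreated clone. Lengths after 4OHT count only the parts of peaks inside a region. These regions were chosen for their untreated length, so shorter treated lengths are favoured by both the choice and the measure. The region over the Mir290 to Mir295 cluster covered 23.0 kb in each untreated clone, 22.6 kb in 4OHT clone a and 23.0 kb in 4OHT clone b. It was a single peak in both untreated lists, its nearest protein-coding start, Nlrp12, was 28.3 kb away, and its percentiles were 99.2 in clone a and 99.8 in clone b. The 4 libraries spanned 22.6 to 23.0 kb, and no library stood apart.

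A region inside Etv5, an ETS factor downstream of FGF and ERK, covered 23.2 and 22.0 kb untreated and 22.8 and 21.9 kb in 4OHT clones a and b. The clones differed by more than the treatments, and within each clone the length was slightly lower after 4OHT. The start of Etv5 itself, 19.4 kb away, had percentiles of 86.9 and 87.4 in the untreated clones.

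The second by covered length was a region near Csnk1a1, a kinase of the beta-catenin destruction complex, over the long noncoding RNA gene Bvht. It covered 23.0 and 22.6 kb untreated and 22.9 and 22.0 kb after 4OHT. A region 9.04 kb from the start of Ranbp17, a nuclear transport receptor of the importin family, covered 21.1 and 20.5 kb untreated and 21.1 and 20.7 kb after 4OHT. At both of these the ranges of the treatments overlapped. Within each clone the Csnk1a1 region was shorter after 4OHT and the Ranbp17 region was slightly longer.

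Tet1, which encodes an enzyme that oxidises 5-methylcytosine in DNA, carried the widest region at a gene start. It covered 20.9 and 20.5 kb untreated and 19.9 and 18.3 kb in the 4OHT clones. Both treated values were the lower ones. Others of the 15 lay at the starts of Eif4a2, an RNA helicase of translation initiation, and of Zfp57, a zinc finger protein that protects imprints, and 0.219 kb from an end of Tmem220.

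Further members of the 15 lay within Mras and Pfdn1 or near Zbtb44, Loxl1, Kmt2e and Pawr. The region 12.8 kb from Kmt2e, a chromatin protein of the MLL family, covered 14.5 and 14.6 kb in the untreated clones and 11.03 and 8.86 kb in the 4OHT clones. Both treated values were below both untreated ones, and they were the lowest 4OHT values of the 15. Width did not equal strength in this set: the region at Tmem220 had percentiles of 93.7 and 97.1 in the untreated clones and the region near Zbtb44 had 99.99 and 99.98.

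**Figure D2:**
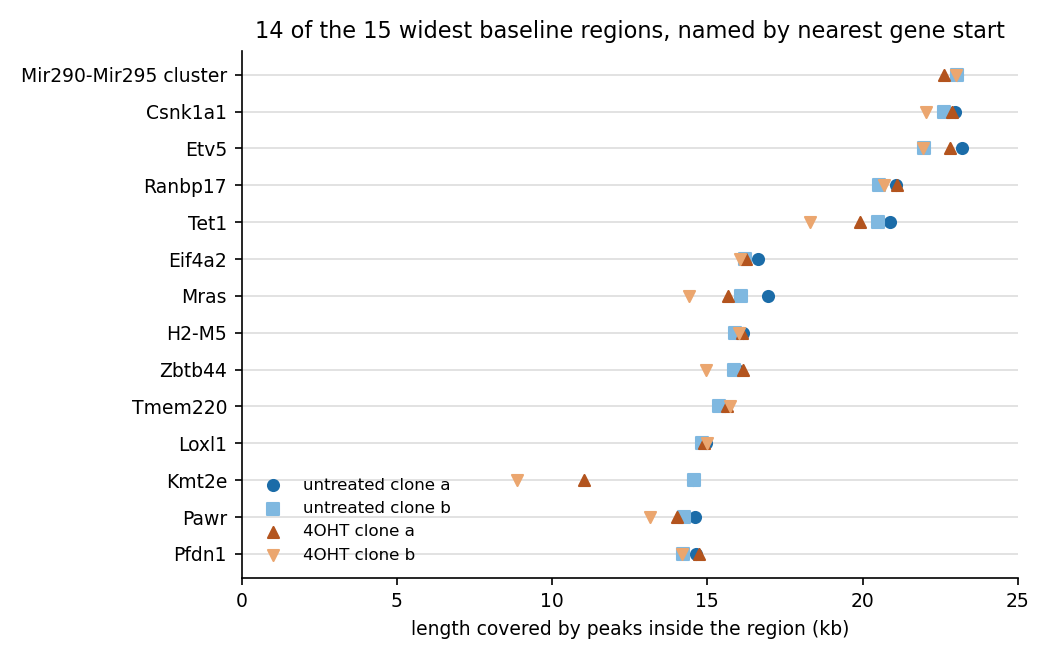
Length covered by peaks (x, kb) inside each of 14 of the 15 widest baseline regions, named by the nearest protein-coding gene start or by the microRNA cluster they hold, with 1 point for each of the 4 libraries. Most rows lie within a few kb, and the row of Kmt2e has its 4OHT points at 11.03 and 8.86 kb.

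The 1000 strongest regions had a median width of 3.75 kb, and the 1000 widest 5.95 kb. The highest strength was at a 7.04 kb region 3.59 kb from the start of A930007A09Rik on chromosome 16. Its percentiles were 99.998 and 99.987 in untreated clones a and b, 99.9 in 4OHT clone a and 98.5 in 4OHT clone b. The second was at Hnrnpa3, which encodes an RNA-binding protein, 0.239 kb from the start. It covered 4.14 and 3.10 kb untreated and 3.96 and 2.80 kb after 4OHT. The clones differed more here than the treatments did.

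Several of the strongest regions lay at or around pluripotency genes. The fourth was an 11.7 kb region at chr4:55470790-55482489, 44.6 kb beyond the end of Klf4, with percentiles of 99.99 and 99.98 untreated and 99.7 and 99.5 after 4OHT. At the start of Klf4 itself the region of highest strength had percentiles of 90.2 and 88.4 untreated and 81.5 and 82.8 after 4OHT. A second region beside this start, inside the gene, had 86.6 and 96.9 untreated and 74.7 and 92.7 after 4OHT. The distal region thus ranked above both regions at the start in all 4 libraries. Rank 14 was a 13.1 kb region over the starts of Lrrc2 and Tdgf1, the co-receptor of NODAL, and rank 19 lay at Gdf3, a ligand of the TGF-beta family.

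Sox2 had a like arrangement. Its region of highest strength lay 100.2 kb beyond the gene at chr3:34752622-34761356 and had percentiles of 99.92 and 99.97 in untreated clones a and b. The region over the gene had 94.5 and 94.9. After 4OHT the distal region had 99.93 and 99.78 and the region over the gene 98.9 and 98.5. In each of the 4 libraries the distal region was the higher.

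Among other members of the 15 strongest, rank 6 lay within Arid5b, which encodes a DNA-binding protein, rank 9 within Irak3, a brake on Toll-like receptor signalling, and rank 10 within Zfp936. Ranks 7, 8, 11 and 15 were nearest to Cdc37l1, Cckar, Tmem17 and Smarcad1, at 13.9, 24.7, 109 and 14.2 kb, and rank 3 was the wide region near Zbtb44. Rank 12 lay at the start of Eapp, a phosphoprotein that binds E2F factors, in only 1.84 kb. Rank 13, near Pxn and overlapping Sirt4, was 0.692 kb wide, with percentiles of 99.95 and 99.93. In all, 30 of the 1000 strongest regions were under 1 kb wide. The order among the first ranks was not stable between clones: 8 of the 15 strongest were among the first 15 in clone a alone and 8 in clone b alone, whereas all 15 of the widest were among the first 15 of clone a and 14 among those of clone b.

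Within 150 kb of Nanog there were 25 baseline regions, and within 150 kb of Sox2, Pou5f1 and Klf4 there were 18, 17 and 15. The median over all protein-coding genes was 9, and 29.1% of them had at least as many as Klf4 and 7.74% at least as many as Nanog, so such numbers were not particular to these genes. The region that ends just before the start of Nanog was 9.37 kb wide, with percentiles of 99.1 and 99.9 untreated and 98.5 and 99.7 after 4OHT. Clone b was the higher in both treatments. The highest neighbours were the region at Gdf3 (99.9 in each untreated clone) and 45.7 kb beyond Nanog (99.7 and 98.2).

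The start of Pou5f1 lay in an 11.3 kb region with percentiles of 99.3 and 99.7 untreated and 99.9 and 99.99 after 4OHT. Esrrb, a nuclear receptor of the naive state, had no baseline region at the listed start, yet peaks covered 46.8 and 43.3 kb of its locus, the gene with 10 kb of flank at each end, in the untreated clones and 52.9 and 48.6 kb after 4OHT. Its strongest region lay inside the gene, 7.98 kb wide, with percentiles of 99.7 and 99.8 untreated. The median protein-coding gene had 1.10 and 1.15 kb covered at its own locus, drawn the same way, in the untreated clones. This window grows with gene length, which was not adjusted for.

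At the other end, no baseline region lay within 150 kb of Fgf5 or of Gata6, the primitive endoderm factor. Around Fgf5 there were 0 peaks in untreated clone a and 2 in clone b, and around Gata6 there was 1 in each. These lists also had 20 baseline regions within 150 kb of Sox1, a neural factor, and 16 within 150 kb of Otx2, a factor of the formative and primed epiblast. The region at the start of Sox1 was low, with percentiles of 22.2 and 33.7, while that at Otx2 had 78.8 and 86.4. A cluster of regions near a gene and a region at its start were thus separate measures.

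Regions no more than 10 kb apart were next joined into 20113 domains. Of these, 542 had at least 10 kb covered by peaks in each untreated clone. They held 11.1% of the baseline regions and 20.2% and 19.6% of the covered length of clones a and b. A median long domain spanned 30.6 kb and held 8 regions, and 68.6% had a gene start inside the span, gaps included, or within 1 kb of it. A longer span has more room for a start, and the share over all domains is not given here.

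The longest domain lay at Tgif1, a homeobox repressor in TGF-beta signalling. Its 25 regions covered 63.6 and 58.4 kb untreated and 59.99 and 53.8 kb in 4OHT clones a and b. The treatments overlapped, clone a was the longer in each, and within each clone the length was lower after 4OHT. The domain of Zfp57 and H2-M5 came next with 51.6 and 52.2 kb untreated and 51.3 and 50.9 kb after 4OHT.

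Among the other domains of the 15 longest, that of Sall1, a zinc finger factor, covered 50.1 and 45.2 kb untreated and 46.7 and 40.8 kb after 4OHT. A domain inside Esrrb covered 43.4 and 41.3 kb untreated and 42.4 and 37.0 kb after 4OHT. Jarid2, a partner of the Polycomb complex PRC2, had 35.9 and 33.6 kb untreated and 35.8 and 34.3 kb after 4OHT. In each of these 3 the ranges of the treatments overlapped. Counted inside baseline regions, the domains of Sall1 and Esrrb were shorter after 4OHT within each clone. Jarid2 was shorter in clone a and longer in clone b. With all peaks counted, Esrrb went the other way: its whole locus, given above, had more length covered after 4OHT within each clone. Peaks within 150 kb of Esrrb numbered 29 and 32 untreated and 35 and 46 after 4OHT.

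The 15 longest also held domains at Tns3, Irf2bpl, Tnfsf12 with Sox15, Smarcad1, Fbxo36 with Trip12, Macf1, Ranbp17, Mcl1 and Aff1, and 1 over replication-dependent histone genes on chromosome 13 with 15 histone gene starts. The histone domain covered 41.3 and 39.9 kb untreated and 36.6 and 35.2 kb after 4OHT. Both treated values were below both untreated ones. Macf1 showed the widest gap between untreated clones of these 15, at 45.8 and 34.9 kb untreated and 41.9 and 29.1 kb after 4OHT.

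**Figure D3:**
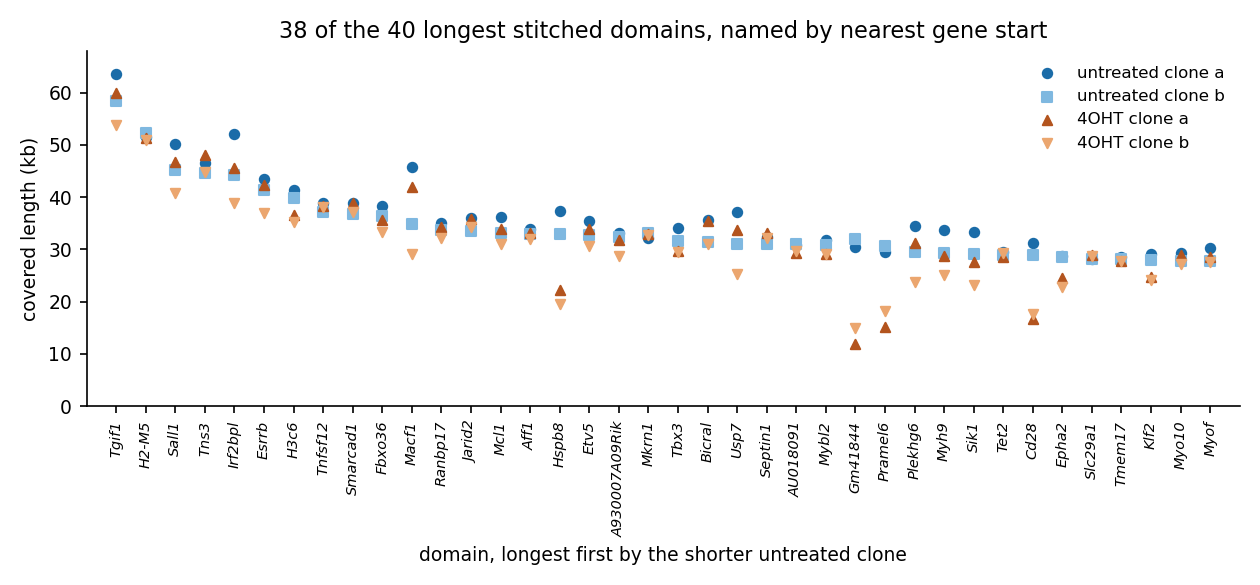
Length covered by peaks inside baseline regions (y, kb) in 38 of the 40 longest domains of baseline regions no more than 10 kb apart (x, longest first by the shorter untreated clone, named by the nearest gene start), with 1 point for each of the 4 libraries. Lengths fall from 63.6 kb at Tgif1, and the domains of Hspb8, Gm41844, Pramel6 and Cd28 have both 4OHT points well below both untreated points.

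Long domains were chosen for their untreated length, so shorter treated lengths are favoured by the choice and nothing is read from their number. Treated length was also counted only inside the baseline regions, so it cannot exceed their summed width. Treated peaks outside these regions are left out. This favours shorter treated lengths in all domains too, so the shares below do not weigh shortening against lengthening. Of the 542, 285 (52.6%) were shorter in both 4OHT clones than in both untreated clones, where 39.6% of all domains were. The opposite pattern held for 19 (3.51%), against 8.92% of all domains. Compared within each clone, 416 (76.8%) were shorter in both clones after 4OHT and 42 (7.75%) longer in both, against 53% and 13.8% of all domains. In 40 (7.38%) both 4OHT lengths were under 66.7% of the untreated mean, and in 13 (2.40%) under 50%, against 21.3% and 15.3% of all domains. The longest of the 13 before treatment, near Gm41844, had 30.5 and 32.0 kb untreated and 11.9 and 14.9 kb after 4OHT.

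Gene lists were then read against the whole genome, where 48.8% of protein-coding genes had a baseline region at the start and 12.1% had one of strength 90 or more. The lists were written by hand, or for ribosomal protein, Hox and receptor genes drawn by symbol, with earlier results of these data known. All 11 core pluripotency genes had a region at the start, 7 of them of strength 90 or more. Of 25 genes of the naive state, 21 had one, 15 of them of strength 90 or more, and the median strength was 96.3, against 77.9 for all genes with a region. The highest were Tdgf1, Fbxo15, Nanog and Tet1, and those without were Dppa3, Esrrb, Gbx2 and Tfap2c. Tfap2c had 3.38 and 3.48 kb of peaks within 10 kb in the untreated clones, and Gbx2 had none in clone a and 1.01 kb in clone b.

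The members differed in level. The percentiles of a gene, here and below, are those of the region at its start with the highest untreated strength. This choice favours lower percentiles after 4OHT, and the share of all gene starts without overlap between treatments is not given here. Zfp42, a standard marker of undifferentiated cells, had percentiles of 98.2 and 99.5 untreated and 97.3 and 99.4 after 4OHT. Tfcp2l1, a factor downstream of LIF and GSK3 inhibition, had 97.9 and 97.6 untreated and 76.5 and 84.6 after 4OHT. Its ranges did not overlap, while those of Zfp42 did. Prdm14, a repressor of FGF signalling and DNA methylation, had 85.1 and 80.4 untreated and 58.1 and 57.8 after 4OHT, again without overlap.

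Of 14 genes of the LIF pathway 12 had a region at the start. Il6st, the shared receptor subunit, had 98.4 and 97.7 untreated and 97.9 and 97.4 after 4OHT. Stat3, the transcription factor of the pathway, had 95.0 and 96.3 untreated and 76.5 and 84.9 after 4OHT. Socs3, its feedback inhibitor, had 91.2 and 92.3 untreated and 78.0 and 74.99 after 4OHT. Stat3 and Socs3 were the higher in both untreated clones, and Il6st overlapped, being slightly lower after 4OHT within each clone. The choice of regions by untreated strength favours this direction. Of 15 WNT targets and effectors 8 had a region at the start (53.3%), near the share of all genes. The highest was Tcf7l1, a repressor on WNT targets, with 98.3 and 98.7 untreated, and T, Sp5 and Lgr5 had none.

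Genes of the inhibited pathway carried regions at the start in the untreated state. Of 21 genes from FGF receptor to ERK, 17 had a region, with a median strength of 81.4. Fgfr1, a receptor that the inhibitor targets, had percentiles of 61.1 and 64.6 untreated and 70.2 and 51.2 after 4OHT. The treatments overlapped. Fgf4, the main FGF ligand of these cells, had 87.2 and 92.7 untreated, and Fgfr3, Fgfr4, Fgf5 and Grb2 had no region at the start.

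Feedback regulators and ETS factors had a region at the start in 16 of 17 genes, Ets1 being the exception, with a median strength of 78.4, near the 77.9 of all genes with a region, and 3 of strength 90 or more. Dusp6, a phosphatase of ERK, had 93.7 and 95.9 untreated and 96.9 and 96.0 after 4OHT. Spry4, an inhibitor of receptor signalling, had 36.1 and 67.9 untreated and 94.1 and 90.8 after 4OHT. Etv4, an ETS factor, had 34.0 and 51.8 untreated and 90.8 and 95.1 after 4OHT. In these regions of the 3 genes both 4OHT clones were the higher, with a small gap at Dusp6. A second region, over Dusp6 itself, had 85.0 and 90.5 untreated and 84.7 and 89.5 after 4OHT, slightly lower within each clone.

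Immediate early genes, which respond to growth factors within minutes, had a region at the start in 23 of 24 cases (all but Egr3), with a median strength of 69.0. Junb had percentiles of 98.1 and 98.7 untreated and 97.4 and 95.2 after 4OHT. Egr1 had 94.1 and 94.9 untreated and 93.0 and 93.9 after 4OHT. Myc had 39.0 and 73.6 untreated and 81.8 and 84.9 after 4OHT. Egr1 and Junb were thus near the top before treatment with slightly lower ranks after it, while Myc was the higher in both 4OHT clones. Length at Egr1 went the other way: its region covered 2.70 and 3.39 kb untreated and its whole 3.40 kb in each 4OHT clone. The median length covered at the loci of the list was 3.17 and 3.56 kb untreated and 4.91 and 4.96 kb after 4OHT.

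Of 19 genes of the formative and primed epiblast, the next stages of development, 12 had a region at the start (63.2%), with a median strength of 70.3. The NODAL pathway genes Lefty2 and Nodal were the highest, with untreated percentiles of 99.9 and 99.1 for Lefty2 and of 98.8 and 98.8 for Nodal. Fgf5, Sox3, Pou3f1 and Foxa2 were among the 7 without one.

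Lists of other cell types were mostly without regions, below the share of all genes. Of 18 primitive endoderm genes 6 had a region at the start, led by the laminin gene Lamc1, and Gata4, Gata6, Sox17, Sox7 and Pdgfra had none. Of 17 mesoderm and primitive streak genes 2 had one, Gsc and Eomes, of 15 neural genes 4, of 14 trophoblast genes 3 and of 13 fibroblast genes 3. With the list of clone b alone the mesoderm and primitive streak count was 5, and with that of clone a alone 2. Fn1, which encodes the matrix protein fibronectin, was the highest of the fibroblast genes with percentiles of 98.6 and 91.4 in untreated clones a and b. Of 20 genes of differentiated tissues only Cd3e had a region, at 41.4 and 38.7, and the count was 2 with clone b alone.

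The label of an embryonic stem cell was checked with markers, in sets shorter than the lists above. Of 10 markers of these cells 9 had a baseline region at the start, all but Esrrb, and the summed length covered at their loci was 168 and 164 kb in untreated clones a and b. The 8 fibroblast markers had 1, at Col1a1, and 7.06 and 6.89 kb. The 5 primitive endoderm markers had none and 0.944 and 2.03 kb, the 3 trophoblast markers had 1, at Gata3, and 10.6 and 9.70 kb, and the 7 markers of other tissues had none and 2.90 and 4.31 kb. These sums were not adjusted for the number or length of the genes, so the sets are not directly comparable. Esrrb alone made up a large part of the sum of the stem cell markers. No untreated peak lay within 10 kb of Dcn, Lum, Postn, Thy1, Twist1, Pdgfra, Sox17, Sox7, Elf5, Alb or Ins1. Genes of the longer lists that are not in these marker sets had more: peaks covered 15.3 and 14.3 kb at the locus of Fn1, 1.47 and 1.92 kb at Vim, an intermediate filament gene, and 18.1 and 16.5 kb at Pecam1, an endothelial adhesion gene with no region at the start. The 6 primitive endoderm genes with a region, Lamc1, Lama1, Lamb1, Col4a1, Col4a2 and Dab2, were likewise outside the set of 5.

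Most ribosomal protein and housekeeping genes also had regions at the start. Of 84 ribosomal protein genes 82 had a region at the start, with a median strength of 96.5, and of 20 housekeeping genes 18, with a median of 94.6. Actb, the cytoplasmic actin gene, had 98.5 and 99.5 untreated and 98.5 and 98.8 after 4OHT. The naive list covered more length than either: its genes had a median of 11.9 and 10.5 kb covered at the locus in untreated clones a and b, against 4.22 and 3.87 kb for ribosomal protein genes and 4.85 and 4.04 kb for housekeeping genes. Gene length also enters this window and was not adjusted for.

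Chromatin regulators mostly had regions too. Of 24 genes of histone acetylation, BAF and Mediator complexes 23 had a region, with a median strength of 89.9 and 11 of strength 90 or more, led by Brd2, a reader of acetylated histones, with 99.7 and 99.8 in untreated clones a and b. Ep300 had 95.5 and 96.3 untreated and 99.4 and 98.3 after 4OHT, so that both 4OHT clones were the higher. Among DNA methylation genes, 10 of 11 had a region, from Tet1 at 99.9 and 99.0 to the methyltransferase gene Dnmt3b, whose percentiles were 2.52 and 25.3 untreated and 55.1 and 41.9 after 4OHT. Olfactory receptor genes had a region at the start in 5 of 1110 cases, vomeronasal receptor genes in 1 of 353 and Hox genes in 6 of 39. These small counts depended on the settings: with clone b alone they were 8, 2 and 10, and within 5 kb of the start 45 olfactory and 7 vomeronasal receptor genes had a region.

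**Figure D4:**
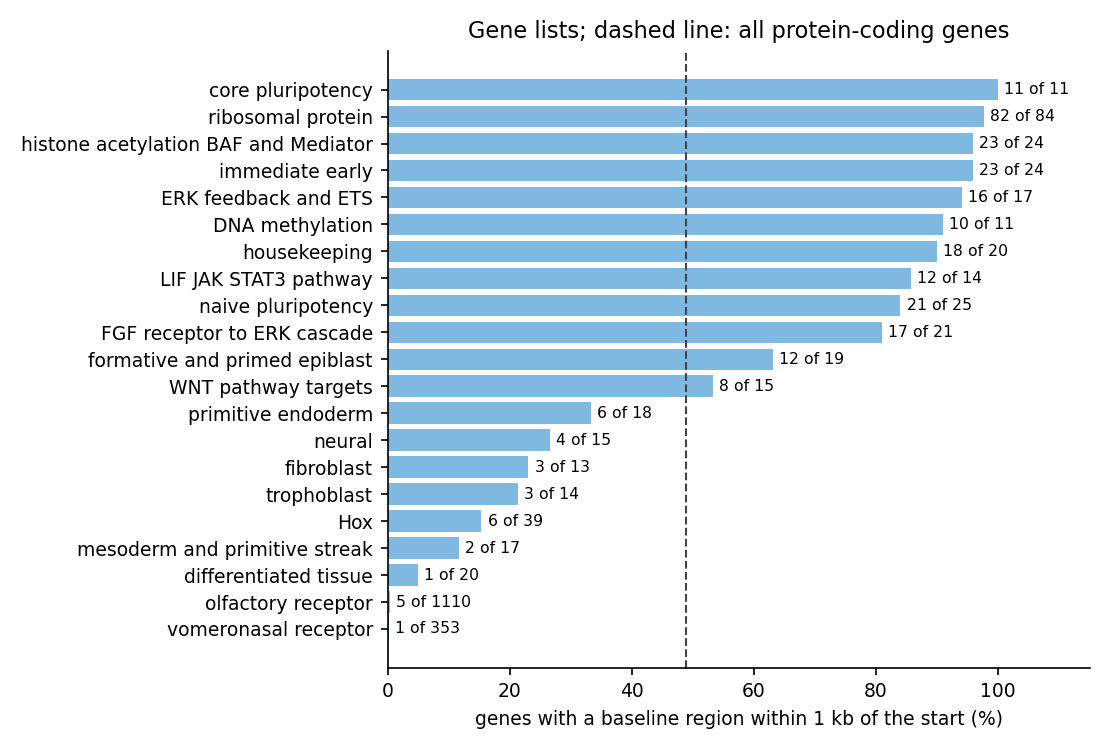
Share of genes with a baseline region within 1 kb of the start (x, percent) in each gene list (y), with counts beside the bars. The dashed line is the 48.8% of all protein-coding genes, and the lists run from 11 of 11 core pluripotency genes to 1 of 353 vomeronasal receptor genes.

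Regions called in a single clone lay mainly at low ranks. Regions of clone a alone had a median percentile of 22.2 and those of clone b alone 22.7, against 63.8 and 63.5 for baseline regions in clones a and b. Over the baseline regions the percentiles of the 2 clones differed by a median of 9.52 points. Of the peaks of clones a and b 76.9% and 78.5% lay in baseline regions, with 90.5% and 90.9% of the covered length. Only 2 regions of clone a alone and 2 of clone b alone reached the 90th percentile. Regions of clone a alone had a peak in 44.4% of cases in 4OHT clone a and 24.0% in 4OHT clone b. Those of clone b alone had one in 31.3% in 4OHT clone a and 48.2% in 4OHT clone b, so each set recurred more in its own clone.

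Chromosome 14 stood apart between the clones. It had 444 regions of clone a alone and 788 of clone b alone, a ratio of 0.563, where the whole genome had 1.04 and the other chromosomes except Y ran from 0.840 (chromosome 12) to 1.20 (X). Over the 1571 baseline regions of chromosome 14, clone b was higher by a median of 3.21 percentile points, against -0.37 to 1.28 on the others. The 4OHT lists gave a ratio of 0.463, against 0.773 to 1.18 elsewhere, and a median of 2.17, against -1.27 to 1.34. The excess of clone b was thus present in both treatments, and its part in differences between clones at genes of chromosome 14, such as Otx2 and Klf5, was not tested.

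**Figure D5:**
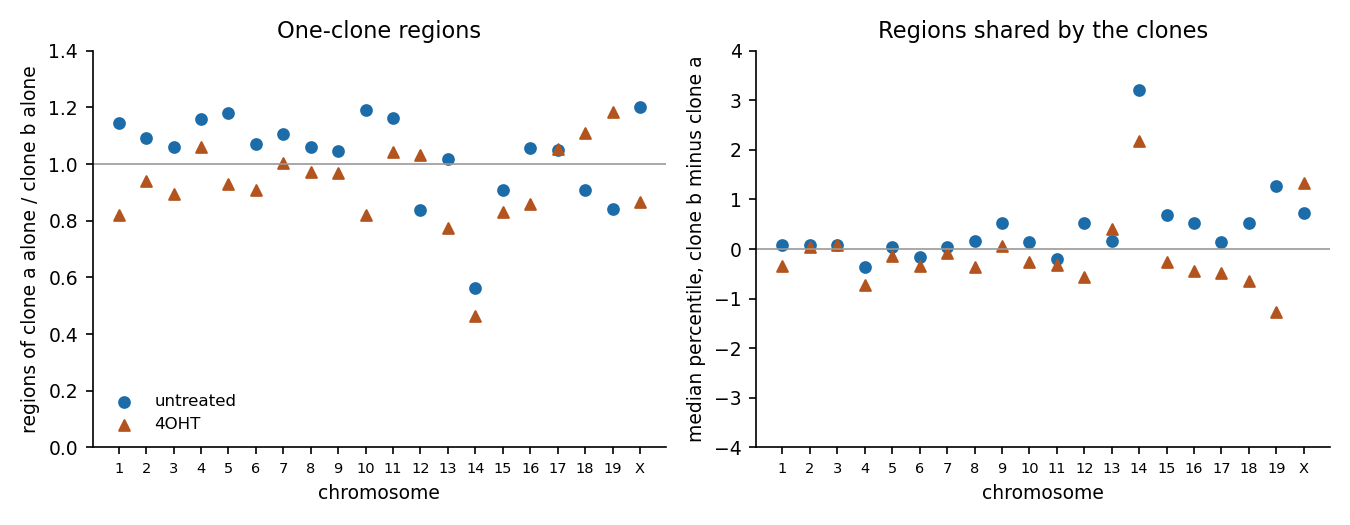
Left, ratio of regions called in clone a alone to regions called in clone b alone on each chromosome except Y (x), for the untreated lists and the 4OHT lists. Right, median percentile of clone b minus clone a over baseline regions, with the 4OHT values over those called in both 4OHT clones. Chromosome 14 has the lowest ratios, 0.563 and 0.463, and the highest differences, 3.21 and 2.17.

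The 4 lists were of similar size, between 59170 and 63276 peaks covering 50.4 to 53.1 Mb, with median peak widths of 503 to 539 bp. The lowest score was 20 in every list, while the highest was 1520 and 2011 in untreated clones a and b, which is why scores were compared as percentiles.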

How the data were processed

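The authors deposited 1 peak list for each H3K27ac library, with a whole-number score per peak and no header. Per the submitters' processing notes, Bowtie2, bedtools and MACS2 were used with mm10. Tool versions, calling thresholds and how inputs entered are not given in the sources consulted, and the 4 input libraries were not analysed here. Scores were ranked within each list with ties at their mean rank (Python 3.11.15, pandas 2.3.3). Gene starts and sequences came from RefSeq tables of GRCm38.p6, which has mm10 coordinates. Merging, covered length, distances and domains were tested on simulated lists. No model was fitted. The 2 clones are the only replicates, and their spread is given as paired values. The text names the nearest genes of the 15 strongest and 15 widest regions and of the 15 longest domains, members of each list with the highest rank or no region, and fixed regulators; Hspb8, Gm41844, Kmt2e and others singled out for treated values were chosen after these were seen. Other list members, such as Zfp42, Tfcp2l1, Socs3, Etv4, Fgfr1, Fgf4 and Dnmt3b, came from outside these rules. Members and lists were chosen with earlier results of these data known. A few genes are not reported here.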

Additional observations from a re-analysis of the deposited data

How the results depend on the processing

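The 42722 baseline regions became 28256 with peaks within 1000 bp merged and 23038 with the upper 50% of each list, and the peaks of a single clone numbered 61203 to 63276. The 30.9% at starts became 29.2% within 500 bp, 40.9% within 5000 bp, 41.0% with the upper 50%, 25.3% with listed starts only and 30.4% with both ends of every gene, and 24.98% to 25.2% for the peaks of a single clone; single-clone values differ little, so small shifts exceed their spread. For the 1000 strongest, 44.3% became 51.6% within 5000 bp, 36.8% with listed starts only and 38.3% to 46.5% ranked by a single clone. For the 1000 widest, 24.9% became 18.8% with listed starts only, 27% with both ends, and 24.7% to 25.8% by a single clone. In every setting run for both, the strongest set exceeded the widest set. Overlaps of the first 500 and 2000 regions were 167 and 899, and those by a single clone 351 to 371. Long domains numbered 628 to 774 by a single clone. The 48.8% of genes with a region became 53.6% within 5000 bp, 39.3% with the upper 50% and 50.2% to 53.3% by a single clone. The median treated percentile of the 1000 strongest, 98.1 as the lower of both clones, was 98.6 to 98.8 by a single clone. List members with a region numbered 182 of 286 and 185 to 194 by a single clone. Of 84 recounts of single lists 17 moved by over 1.5 times, all in the lists of other cell types and of Hox and chemoreceptor genes.

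Listed starts alone, both ends of every gene and the upper 50% for gene lists were chosen after seeing the data. Of the 1000 strongest regions 782 remained among the first 1000 by clone a and 774 by clone b. Depth is unknown, so no limit of detection can be given. No paired test was run, because no result comes from a test. Clones a and b occur in both treatments, and values are given clone by clone.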

Other observations

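MicroRNA genes other than the Mir290 to Mir295 cluster also lay in baseline regions. Of all 1228 microRNA genes that RefSeq lists, 122 (9.93%) overlapped a baseline region, 45 of them in a region of strength 90 or more and 15 in a region over 5 kb. Each of these counts includes the 9 genes of the Mir290 to Mir295 cluster, which share a single region of strength 99.2. Mir130a, Mirlet7i, Mir484 and Mir423 lay in regions of strength 98.4, 95.8, 95.8 and 95.9. These were chosen after their values were seen, and a microRNA gene inside a region over a host gene cannot be told apart from its host.

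The sex chromosomes carried fewer regions per gene. A baseline region lay at the start of 28.2% of the 966 protein-coding genes of chromosome X and of 50.3% of autosomal genes. There were 1.05 baseline regions per gene on X and 2.02 on the autosomes. Median strength was alike, at 55.2 on X and 55.0 on the autosomes. On Y, 9 baseline regions were listed and 1.17% of 256 genes had one at the start.

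Among regions called in a single untreated clone, the highest in clone a lay 9.13 kb from Tbx19, at the 94.3 percentile, with a peak in 4OHT clone a at 63.7. The highest in clone b lay on chromosome 12 far from a listed start, at 94.9, with peaks in 4OHT clone a at 7.42 and in 4OHT clone b at 87.5. Of the 10 highest regions of clone a alone all had a peak in 4OHT clone a, and of the 10 highest of clone b alone all had one in 4OHT clone b. Of the latter 4 lay on chromosome 14.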
